A study of Homo sapiens with 8 samples.

Results

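Narrow NKRF peaks at the ends of protein-coding genes were examined after the long non-coding RNA Uc003xsl.1 had been targeted by siRNA in MDA-MB-231-P3, a triple-negative breast cancer subline labelled as strongly metastatic. They were chosen by measured values of the peak lists and by position. A member lay on chromosomes 1 to 22, was shorter than 500 bp, held at least 10 tags (sequence reads left after duplicate removal), overlapped no peak of the other si-Uc003xsl.1 list, and had its summit within 1 kb of either end of a protein-coding gene. There were 886 such peaks among the 20386 of all 4 lists, 480 of 7577 in si-Uc003xsl.1 replicate 1 (6.33%, exact Clopper-Pearson 95% interval 5.80 to 6.91) and, with the same limits, 406 of 4463 in replicate 2 (9.10%, interval 8.27 to 9.98). The comparison group was the same subline transfected with control siRNA. Each group had 2 immunoprecipitations with the same NKRF antibody (ab168829) and 2 inputs. All samples came from this single subline, nothing in the labels says that replicates were separate cultures, and the peak lists do not show how far Uc003xsl.1 was lowered. A peak list holds no expression, so the cells were not checked against marker genes.

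NKRF, the NF-kB repressing factor, is a DNA-binding protein described to attach to a negative regulatory element in promoters such as those of IFNB1, CXCL8 and NOS2 and to keep NF-kB from activating them. It is also found in the nucleolus, where it works with the exonuclease XRN2 and the helicase DHX15 in the processing of ribosomal RNA. Promoters, the stretches of DNA around a gene's start where transcription begins, are often rich in G and C and in CpG pairs, and many of them carry GC boxes, the sites of SP and KLF factors.

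The promoters under 6 of the strongest members are shown first, since most members lay at gene starts in GC-rich sequence. They belong to the genes named below whose promoter began at the gene's outer end and held the member's summit, taken in order of tags. Each sequence is the 250 bases before the gene's start, 5′ to 3′ on the gene's strand, from RefSeq on GRCh38.p14. Capitals mark matches to short motifs on either strand: the GC box (GGGCGG), the ETS motif (CCGGAAG), the YY1 motif (AAGATGG), the E-box (CACGTG), the CCAAT box (CCAAT) and the TATA box (TATAAA).
POLE2, replicate 1, 40 tags, chr14:49688215-49688464, minus strand: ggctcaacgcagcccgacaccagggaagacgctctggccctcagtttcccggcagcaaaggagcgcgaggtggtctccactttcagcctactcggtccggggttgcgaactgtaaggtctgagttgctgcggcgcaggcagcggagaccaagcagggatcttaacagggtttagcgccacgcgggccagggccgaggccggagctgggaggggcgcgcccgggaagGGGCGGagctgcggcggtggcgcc
DCPS, replicate 1, 37 tags, chr11:126303810-126304059, plus strand: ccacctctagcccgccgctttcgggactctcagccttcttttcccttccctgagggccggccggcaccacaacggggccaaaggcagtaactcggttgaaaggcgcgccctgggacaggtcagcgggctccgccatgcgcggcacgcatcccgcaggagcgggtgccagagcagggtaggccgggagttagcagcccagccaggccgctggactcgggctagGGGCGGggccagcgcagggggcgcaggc
MTG2, replicate 2, 36 tags, chr20:62182778-62183027, plus strand: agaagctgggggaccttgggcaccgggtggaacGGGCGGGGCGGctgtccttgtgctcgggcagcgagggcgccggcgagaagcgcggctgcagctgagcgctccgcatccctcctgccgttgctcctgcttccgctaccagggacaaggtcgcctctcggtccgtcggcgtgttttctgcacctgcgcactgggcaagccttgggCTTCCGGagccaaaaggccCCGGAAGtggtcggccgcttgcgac
GALNS, replicate 1, 36 tags, chr16:88856948-88857197, minus strand: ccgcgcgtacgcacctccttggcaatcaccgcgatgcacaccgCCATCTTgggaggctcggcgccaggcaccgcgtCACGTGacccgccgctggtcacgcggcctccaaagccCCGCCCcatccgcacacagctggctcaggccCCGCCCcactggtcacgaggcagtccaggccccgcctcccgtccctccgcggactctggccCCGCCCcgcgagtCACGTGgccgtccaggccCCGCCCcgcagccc
RIPK1, replicate 1, 35 tags, chr6:3063717-3063966, plus strand: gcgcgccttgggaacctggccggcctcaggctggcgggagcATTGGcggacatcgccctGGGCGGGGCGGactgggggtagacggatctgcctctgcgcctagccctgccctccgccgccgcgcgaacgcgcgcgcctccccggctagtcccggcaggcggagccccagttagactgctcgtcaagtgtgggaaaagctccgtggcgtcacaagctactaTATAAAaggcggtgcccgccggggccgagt
SAMD4B, replicate 1, 34 tags, chr19:39342171-39342420, plus strand: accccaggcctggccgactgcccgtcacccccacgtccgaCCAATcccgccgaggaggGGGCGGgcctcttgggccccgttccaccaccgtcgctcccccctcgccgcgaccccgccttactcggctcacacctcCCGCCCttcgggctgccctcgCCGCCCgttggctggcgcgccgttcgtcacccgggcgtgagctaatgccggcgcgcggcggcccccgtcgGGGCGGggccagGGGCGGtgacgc

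All 6 sequences held a GC box, from 1 in POLE2 and DCPS to 4 in GALNS and 5 in SAMD4B. MTG2 also had 2 ETS matches on opposite strands, GALNS 2 E-boxes and a YY1 match, and RIPK1 a CCAAT box and a TATA box. Their GC content ran from 68.8% in POLE2 to 78.0% in SAMD4B. A GC box is common at such GC content. Over all 300-base promoters it was in 84.6% of those with 66% to 72% GC and in 96.3% of those with more. These matches describe the letters and show neither a bound site nor a cause of the peak.

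Members were modest peaks. Tags per member ran from 10 to 40 with a median of 19 in replicate 1, and from 10 to 36 with a median of 16 in replicate 2. Lengths ran from 163 to 498 bp (median 343 bp) and from 163 to 499 bp (median 346 bp). The authors' fold enrichment over input had a median of 6.47 (3.58 to 22.7) in replicate 1 and 6.63 (3.90 to 16.3) in replicate 2, and the median -log10 p of the caller was 4.80 and 4.67, against a calling threshold of 4. The caller's false discovery rate ran from 18.0% to 33.3% in replicate 1 and from 9.69% to 34.6% in replicate 2, and 0 members were at or below 5%. After duplicate removal replicate 1 held 18890698 tags and replicate 2 held 11366267, so 10 tags are a larger share of replicate 2.

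**Figure D1:**
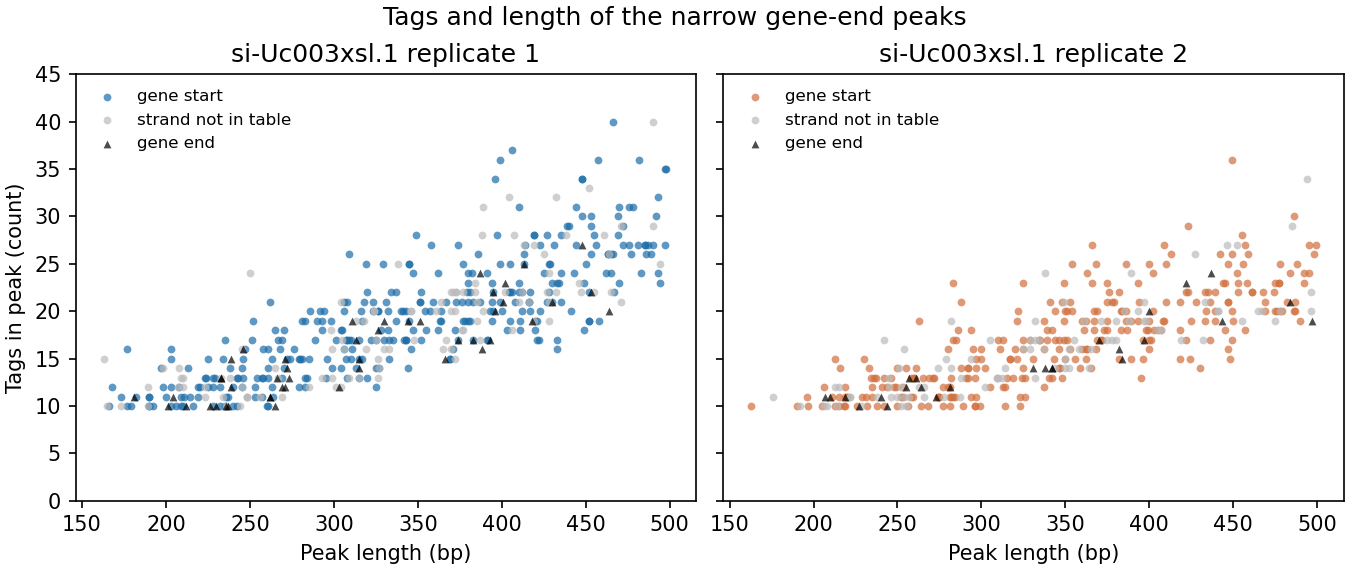
Tags (count) against length (bp) of each member in the 2 si-Uc003xsl.1 libraries, coloured circles for members nearest a gene's start, black triangles for those nearest a gene's end and grey circles where the strand of the gene is not in the promoter table. Tags rise with length in both libraries, and no member at a gene's end exceeds 27 tags.

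The thresholds cut through continuous distributions. Among unshared narrow peaks at gene ends, 30 peaks of replicate 1 had exactly 9 tags and were left out while 30 with 10 tags were members, and in replicate 2 these numbers were 46 and 33. The longest members measured 498 and 499 bp, and the shortest peaks left out for length measured 500 bp in both libraries. The farthest members lay 993 and 994 bp from a gene end, and the nearest peaks left out for distance lay 1006 and 1002 bp away.

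Most members whose gene's strand was known lay at the gene's start and not at its end, although the selection treated both ends alike. The promoter table gave a strand for 15101 of the 19126 protein-coding genes on these chromosomes (78.96%). In replicate 1, 325 members lay at a start and 47 at an end (87.4% at starts, exact Clopper-Pearson interval 83.6 to 90.6), and 108 had a gene without a strand in the table. In replicate 2 the numbers were 288, 26 and 92 (91.7% at starts, interval 88.1 to 94.5). Peaks of one library are not replicates, so these intervals cover counting error only.

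The same share was lower in the narrow gene-end peaks with 6 to 9 tags that were left out. In replicate 1, 71 of 139 lay at starts (51.1%, interval 42.5 to 59.6), and in replicate 2, 80 of 125 (64.0%, interval 54.9 to 72.4). Within the members it rose with tag count. In replicate 1 it was 78.8% at 10 to 14 tags (n = 99), 85.7% at 15 to 19 (n = 112) and 93.8% at 20 to 40 (n = 161). In replicate 2 it was 86.6% (n = 119), 93.9% (n = 98) and 95.9% (n = 97). Length moved with tags in these classes, with medians from 238 to 412 bp in replicate 1 and from 264 to 438 bp in replicate 2, and the part of each was not tested. Unshared gene-end peaks of 500 bp or more lay at starts in 97.3% (interval 95.2 to 98.7) and 97.9% (interval 95.3 to 99.3), and those shared by the lists in 98.7% and 98.6%.

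**Figure D2:**
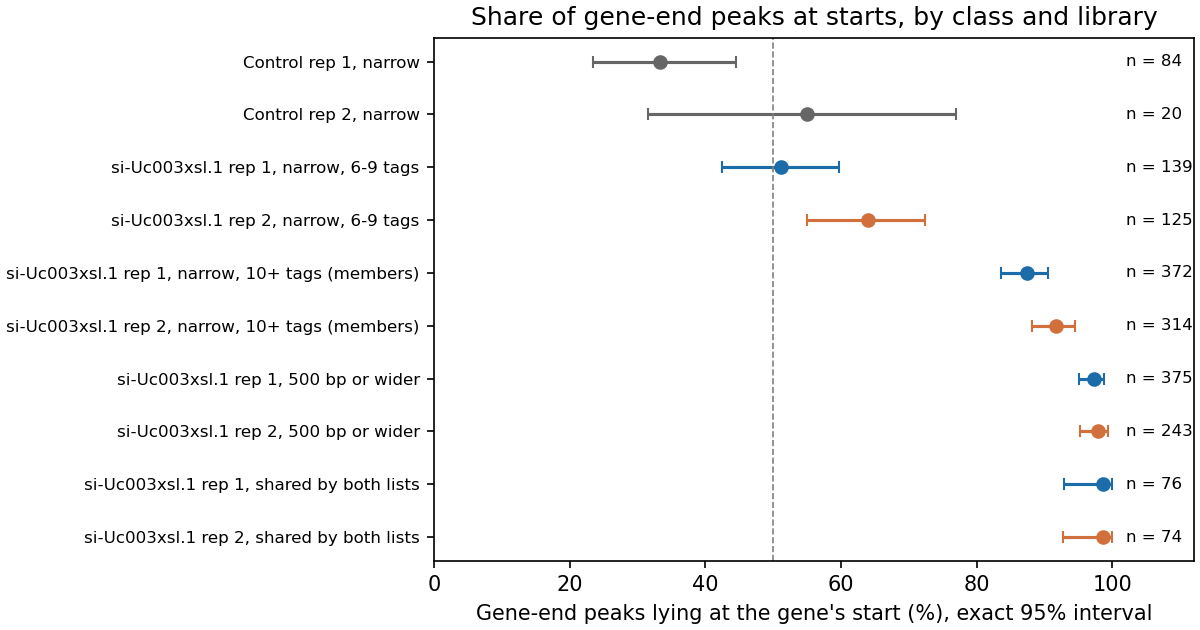
Share (%) of gene-end peaks lying at a gene's start, with exact 95% intervals, in each class and library; n is the number of peaks whose gene's strand was known and the dashed line is an even share. Members sit at 87.4% and 91.7%, between the peaks of 6 to 9 tags and the wider or shared peaks. The control peaks, taken without a tag limit, sit at 33.3% and 55.0%. The si-Uc003xsl.1 values without that limit, 78.3% and 85.0%, are not drawn.

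In the control libraries few narrow peaks lay at gene ends, and a smaller share of them lay at starts. Control replicate 1, the one control list that gives tags, had 103 narrow peaks with 10 or more tags on chromosomes 1 to 22, of which 4 lay at gene ends (3.88%, interval 1.07 to 9.65), 2 of them at starts. With the same limits and shared peaks included, 515 of 1683 (30.6%) lay at gene ends in si-Uc003xsl.1 replicate 1 and 453 of 1147 (39.5%) in replicate 2. The selection used these limits in the si-Uc003xsl.1 lists, so this comparison is a description. Leaving out the tag limit, which control replicate 2 cannot meet, narrow gene-end peaks lay at starts in 28 of 84 (33.3%, interval 23.4 to 44.5) and 11 of 20 (55.0%, interval 31.5 to 76.9) in control replicates 1 and 2, and in 419 of 535 (78.3%) and 407 of 479 (85.0%) in si-Uc003xsl.1 replicates 1 and 2. Group means were 44.2% ± 15.3 (SD, n = 2) and 81.6% ± 4.70 (SD, n = 2). The groups did not overlap, and their means differed by 37.5 percentage points, more than the replicates of either group (exact two-sided permutation p = 0.33, which is as low as 2 against 2 libraries can reach). Median tags of these narrow gene-end peaks were 7 in control replicate 1 against 16 and 14 in si-Uc003xsl.1 replicates 1 and 2. Start share rose with tags above, and in the unshared si-Uc003xsl.1 peaks of 6 to 9 tags it was 51.1% and 64.0%. The part of tag count in the difference was not tested.

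The share of all narrow peaks that lay at gene ends, part of what the selection used, is given for completeness. It was 1.37% and 2.57% in control replicates 1 and 2 and 10.1% and 15.9% in si-Uc003xsl.1 replicates 1 and 2. Control replicate 2 was called by another program version with other settings, and the fragment length set by the caller was 49 and 150 bp in control replicates 1 and 2 against 60 and 67 bp after si-Uc003xsl.1. Tags were longer in control replicate 2 than in the other libraries, where they had 50 bp. Whether these play a part was not tested, and enrichment of a library cannot be told apart from occupancy in peak lists.

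Around gene starts the summits leaned into the gene. The median summit lay 115 bp inside the gene in replicate 1 (quartiles 85 bp outside to 411 bp inside) and 200 bp inside in replicate 2 (upper quartile 476 bp). Inside the gene lay 202 of 325 start members in replicate 1 (62.2%, interval 56.6 to 67.4) and 216 of 288 in replicate 2 (75.0%, interval 69.6 to 79.9). Other gene-end peaks leaned the same way. The share inside was 62.0% and 62.5% at 6 to 9 tags, 65.5% and 68.9% at 500 bp or more, and 62.7% and 71.2% in shared peaks. The start used was the gene's outer end, so its alternative starts could lie only inside, and their part was not tested. In replicate 1 the fullest bin of 200 bp was the one just before the start, with 79 members (24.3%), and in replicate 2 the one just after it, with 72 (25.0%). In both libraries 48.6% of start members lay within 250 bp of the start. Beyond 400 bp the sides were uneven, with 20 members outside and 85 inside in replicate 1 and 14 outside and 100 inside in replicate 2.

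**Figure D3:**
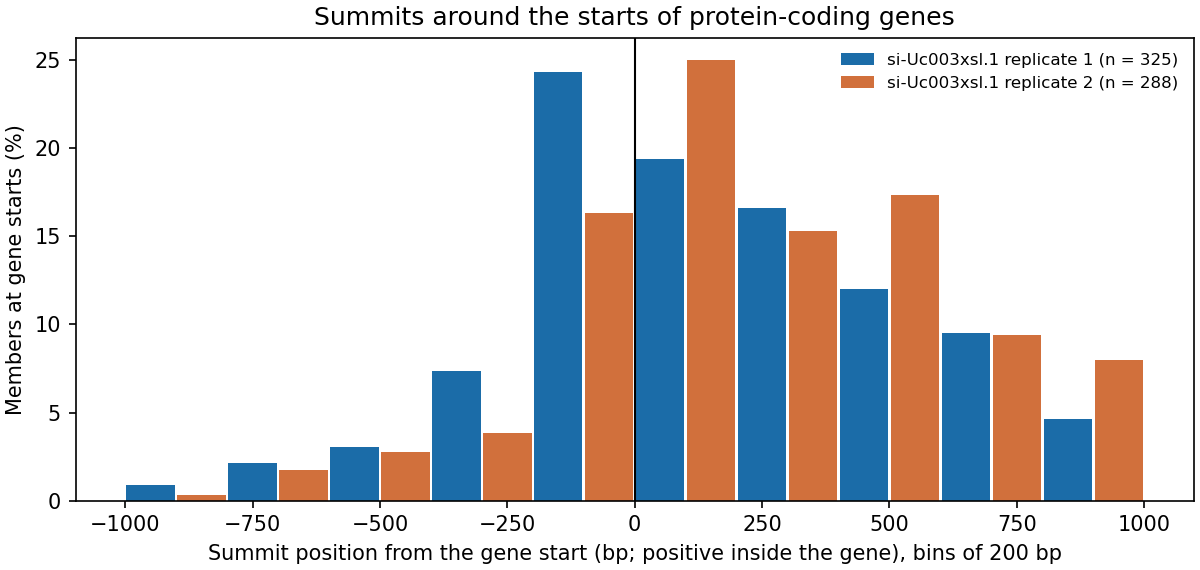
Summit position from the gene start (bp, negative outside and positive inside the gene) of members at starts, as a percent of those members in bins of 200 bp, for si-Uc003xsl.1 replicates 1 (n = 325) and 2 (n = 288). The bins inside the gene hold 62.2% and 75.0% of them.

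Members at the other end of genes were fewer and smaller. They had medians of 15 tags (n = 47) and 14 tags (n = 26), against 19 and 17 tags at starts, and the highest held 27 and 24 tags against 40 and 36. Of them, 11 of 47 and 3 of 26 lay within 1 kb of some start in the promoter table, which also holds alternative starts and non-coding genes. The member at the end of IP6K1, an inositol hexakisphosphate kinase gene, was of this kind, with 25 tags at chr3:49724078-49724490 and another start 374 bp away. SCGB3A1, which encodes a secreted secretoglobin, had 27 tags at chr5:180590248-180590695, with the nearest annotated start 1082 bp off. These genes were chosen after their values were seen. The promoter table gave a strand for 78.96% of protein-coding genes, so starts can be missing from it. The counts of 11 and 3 near some start are therefore lower bounds.

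Some members had more than 1 gene within reach. Ends of 2 or more protein-coding genes were within 1 kb of 62 of 480 members in replicate 1 (12.9%, interval 10.0 to 16.3) and of 52 of 406 in replicate 2 (12.8%, interval 9.72 to 16.5). In at least 30 and 27 of these the genes' starts faced opposite ways, counting only genes whose strand was known. One such peak, in replicate 2, lay among 3 histone genes on chromosome 6, H2AC7, H2BC7 and H3C4, at chr6:26198963-26199345 with 20 tags.

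Of the 10 members with the most tags in replicate 1, 9 lay at a start. POLE2, a subunit of DNA polymerase epsilon, held 40 tags at chr14:49688013-49688478, 46 bp before its start. DCPS, the scavenger decapping enzyme of mRNA decay, held 37 tags at chr11:126303744-126304149. The lowest fold of these 10 was 3.58 at GALNS, the lysosomal galactosamine sulfatase, which held 36 tags at chr16:88856831-88857229, 26 bp before its start and within 1 kb of an end of TRAPPC2L.

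Others were MAPRE2, a microtubule end-binding protein gene with 36 tags at chr18:34976760-34977241, BOLA3, a mitochondrial iron-sulfur cluster factor gene with 36 tags, SAMD4B with 34 tags, CALM3, a calmodulin gene with 34 tags at chr19:46600927-46601322, RIPK1 and SIGIRR. RIPK1, the kinase that passes tumour necrosis factor receptor signals to NF-kB, held 35 tags at chr6:3063728-3064224, 159 bp before its start, at a fold of 5.84 and a caller's false discovery rate of 26.4%. SIGIRR, an inhibitory member of the interleukin-1 receptor family, held 35 tags at chr11:416071-416568, 960 bp inside its start and so close to the distance limit. MAPRE2 had the highest -log10 p of the 10, at 9.35.

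In replicate 2 the member with the most tags lay at MTG2, which encodes a GTPase of the mitochondrial ribosome, with 36 tags at chr20:62182490-62182938, 218 bp before its start and within 1 kb of an end of SS18L1. NLRC5, a regulator of MHC class I genes, held 34 tags at chr16:56989428-56989921, 19 bp outside an end. ASB6 held 30 tags at chr9:129641786-129642271, 65 bp inside its start. LIG3, a DNA ligase of single-strand break repair and of mitochondria, held 29 tags at chr17:34980706-34981128, and TALDO1, the transaldolase of the pentose phosphate pathway, 27 tags at chr11:746896-747394. The other 5 were TNNC2, ANO10, TBC1D9B, HEATR3 and CLPTM1, with 27 to 29 tags. None of the genes nearest to the 10 leading members of each replicate was common to both. Peaks that overlapped between the lists could not be members, and only 2.75% and 2.36% of all genes had a member in replicates 1 and 2. The absence is therefore a description.

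Since overlap was excluded by the selection, the libraries could share a gene only through separate peaks. Of the protein-coding genes on chromosomes 1 to 22, 526 (2.75%) had a member within 1 kb of an end in replicate 1, 451 (2.36%) in replicate 2 and 967 (5.06%) in either. Both libraries had one at 10 genes. These were 1.90% of the genes of replicate 1, near the 2.36% of all genes with a member in replicate 2. They were 2.22% of the genes of replicate 2, near the 2.75% of all genes with one in replicate 1. At 5 genes the members lay at the same end: CYP1B1, NXPH4, TBC1D8, NR2F6 and YWHAH. Their summits were 449 to 977 bp apart.

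At CYP1B1, a cytochrome P450 of oestrogen and xenobiotic metabolism, the member of replicate 1 held 22 tags at chr2:38076907-38077276 and that of replicate 2 held 19 tags at chr2:38076114-38076445, with 461 bp between them. At TBC1D8, a gene of the TBC domain family, they held 21 and 15 tags with 295 bp between them, 121 bp before and 684 bp inside the start. At NR2F6, an orphan nuclear receptor gene, they held 16 and 12 tags, and at NXPH4, a neurexophilin gene, 19 and 15. YWHAH, a 14-3-3 protein gene, had the closest pair, with 12 tags at chr22:31944895-31945157 and 10 tags at chr22:31944586-31944827, 67 bp apart. In these 5 genes the member of replicate 1 had more tags each time, in the deeper library. At the other 5, TRAPPC2L, ZNF580, PGLS, RITA1 and LOC122539214, the members lay at different ends of the gene.

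Peaks of other lists were seldom near a member, but for the other si-Uc003xsl.1 list the selection itself had excluded overlap. Within 1 kb, a peak of the other si-Uc003xsl.1 list accompanied 10 of 480 members of replicate 1 (2.08%) and 16 of 406 of replicate 2 (3.94%). Within 10 kb it was 38 (7.92%) and 48 (11.8%). For the peaks of 6 to 9 tags, taken with the same exclusion, it was 2.44% and 2.50% within 1 kb. Within 10 kb it was 3.66% and 8.75% for them. At 1 kb the members thus stood below these peaks in replicate 1 and above them in replicate 2. No control peak lay within 1 kb of a member of replicate 1. For replicate 2, 3 members had one, all on chromosome 19 and all from control replicate 1. The member at the end of YJU2, a splicing factor gene, held 10 tags at chr19:4268502-4268745 and overlapped a control peak of 12 tags at chr19:4268637-4268883. Those at OLFM2 and TDRD12 held 10 and 11 tags beside control peaks of 7 and 9 tags. Control peaks were as rare near the peaks of 6 to 9 tags. Within 1 kb, 2 of 164 of these in replicate 1 (1.22%) and 0 of 160 in replicate 2 had one, against 0.739% of members of replicate 2.

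Members were spread over the chromosomes in rough proportion to genes. Chromosome 1 held the most, with 63 and 43 members in replicates 1 and 2, followed by chromosome 19 with 49 and 41 (10.2% and 10.1% of members, against 7.59% of genes). Across the 22 chromosomes Pearson's r between members and genes was 0.90 and 0.88, a description over points that share libraries and gene density. Members per 100 genes did not run in parallel between the libraries, with r of -0.06. Chromosome 20 differed most between them: 3 members (0.56 per 100 genes) in replicate 1 against 16 (2.98) in replicate 2. The list of replicate 1 was not empty there, with 201 peaks, 102 of them with 10 or more tags and 34 of 500 bp or more, against 157, 89 and 39 in replicate 2. The difference was not tested.

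**Figure D4:**
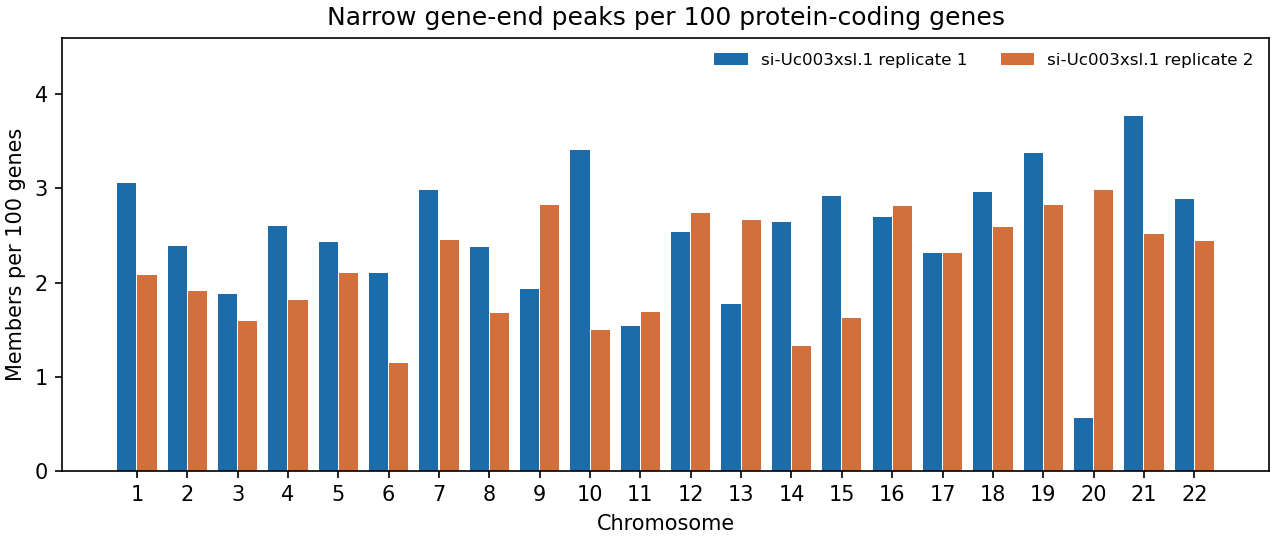
Members per 100 protein-coding genes on each of chromosomes 1 to 22 in si-Uc003xsl.1 replicates 1 and 2. Values run from 0.56 (chromosome 20) to 3.77 (chromosome 21) in replicate 1 and from 1.14 (chromosome 6) to 2.98 (chromosome 20) in replicate 2.

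The promoters of genes with a member at the start were richer in G and C than promoters at large. The median GC content of the 300-base promoter was 68.5% in replicate 1 (320 genes, quartiles 61.7 to 75.0) and 68.7% in replicate 2 (283 genes, quartiles 62.3 to 74.8), against 62.7% over all 15101 promoters (quartiles 54.0 to 70.3). The CpG ratio, observed over expected from base content, had medians of 0.857 and 0.856 against 0.765. It reached 0.6 in 276 of 320 (86.3%) and 248 of 283 (87.6%), against 66.1% of all promoters. Promoters under peaks of 6 to 9 tags had median GC contents of 63.8% and 66.5%, those under peaks of 500 bp or more 71.3% and 73.0%, and those of the 28 genes with a narrow start peak in control replicate 1 had 50.8%.

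The share of promoters with a member rose with GC content. With all promoters in 5 classes of similar size, from the lowest to the highest GC content, it was 0.561%, 1.60%, 2.03%, 2.57% and 3.92% in replicate 1 and 0.429%, 1.16%, 2.03%, 2.61% and 3.24% in replicate 2. Amplification and sequencing also depend on base composition, and their part was not tested.

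Of 10 motifs searched on both strands of these promoters, the GC box differed most from all promoters in percentage points. As a ratio, other motifs differed more, such as the TATA box in replicate 2. The GC box was in 254 of 320 (79.4%, interval 74.5 to 83.7) and 231 of 283 (81.6%, interval 76.6 to 86.0) against 58.7% of all. GC content moved with it: in class 5, the highest GC content, the GC box was in 97.6% of promoters with a member in either library (n = 208) and in 96.3% of all, in class 4 in 85.8% (n = 155) and 84.6%, in class 3 in 71.7% (n = 120) and 64.5%, in class 2 in 64.8% (n = 88) and 41.8%, and in class 1 in 13.3% (n = 30) and 8.78%. The CCAAT box was in 29.7% and 29.7% against 36.1% of all, and the TATA box in 7.81% and 3.89% against 9.83%. Within the GC classes the TATA box went both ways. From class 1 to class 5 it was in 23.3%, 10.2%, 1.67%, 5.16% and 4.33% of promoters with a member in either library. Over all promoters of these classes it was in 29.3%, 8.89%, 5.75%, 2.91% and 1.94%. The CCAAT box was lower with a member in classes 1 to 4, as with 25.8% against 33.7% in class 4. It was higher in class 5, with 26.4% against 23.8%. The ETS motif was in 16.6% and 17.0% against 14.3%, the E-box in 10.3% and 13.8% against 8.71%, and the YY1 motif in 7.19% and 5.65% against 6.28%.

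Motifs tied to NKRF and NF-kB stood near their share over all promoters, a share that moved with GC content. The first letters of the negative regulatory element described for NKRF (AATTCCTC) were in 3 of 320 (0.938%, interval 0.194 to 2.72) and 1 of 283 (0.353%, interval 0.00895 to 1.95) promoters, against 0.755% of all. Over all promoters these letters fell from 1.52% in GC class 1 to 0.0341% in class 5, and members held too few for a comparison by class. The NF-kB motif was in 15.0% (interval 11.3 to 19.4) and 13.4% (interval 9.68 to 18.0) against 12.3%. From class 1 to class 5 it was in 6.67%, 11.4%, 13.3%, 11.6% and 19.2% of promoters with a member in either library. Over all promoters of these classes it was in 4.52%, 9.74%, 13.5%, 15.9% and 18.1%. The AP-1 motif (TGANTCA) was in 5.00% and 3.18% against 5.64%, and the cyclic AMP response element (TGACGTCA) in 1.88% and 2.12% against 2.62%. The 300-base window does not cover every member's summit, and a missing match says nothing of the factor.

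NF-kB genes had members at 3 of 51 targets (5.88%, interval 1.23 to 16.2) and 2 of 27 pathway genes (7.41%, interval 0.910 to 24.3) in either library, with intervals that include the 5.06% of all genes. NFKB1, which encodes the p105 and p50 subunit, held 25 tags at chr4:102501154-102501498 in replicate 1, 65 bp before its start. CXCL6, a neutrophil chemokine gene, held 13 tags in replicate 1, and IL6, the gene of interleukin-6, held 11 tags at chr7:22727572-22727894 in replicate 2, 528 bp inside its start. The pathway genes were RIPK1 and CYLD, and CYLD, a deubiquitinase that restrains NF-kB signalling, held 21 tags at chr16:50741968-50742403 in replicate 2. None of CXCL8, IFNB1 and NOS2 had a member.

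Genes of DNA repair and chromatin modification carried members at 11.1% and 11.4%, with intervals that include the 5.06% of all genes. In DNA repair these were 4 of 36 genes (interval 3.11 to 26.1): LIG3 with 29 tags, NBN of the MRE11 complex with 21, XRCC5, the Ku80 subunit, with 13, and RAD51C with 10. The peak counted for RAD51C lay 3 bp before the start of IGBP1C. In chromatin modifiers they were 5 of 44 (interval 3.79 to 24.6), among them SUZ12 of the polycomb complex that methylates histone H3 with 20 tags, the deacetylase gene HDAC2 with 18, TET1 of DNA demethylation with 17 and the acetyltransferase gene KAT6A with 14. Each gene named here from these lists had its member in only 1 library.

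Lists of translation and respiration genes ranged from 1.2% to 7.55%, and the interval of each included the 5.06% of all genes. Mitochondrial ribosomal protein genes had members at 5 of 77 (6.49%, interval 2.14 to 14.5), led by MRPS17 with 20 tags, MRPL40 with 13 and MRPS2 with 12, the last in a peak nearer to PIERCE1. Of 83 cytosolic ribosomal protein genes, RPL6 had one (1.2%, interval 0.0305 to 6.53), with 19 tags at chr12:112419082-112419478, nearer to an end of PTPN11. Genes of the EIF family had members at 4 of 53 (7.55%), with EIF1B and EIF3I at 21 tags, the latter in a peak nearer to TMEM234, and EIF4A3 at 20. Respiratory chain and ATP synthase genes had them at 4 of 82 (4.88%), among them COX7C of cytochrome oxidase with 27 tags and ATP5PB with 25, the latter in a peak nearer to WDR77. Ribosome biogenesis genes and NKRF partners had one at 1 of 33 (3.03%), POLR1C, with 25 tags nearer to YIPF3.

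The remaining lists ranged from none to 5.88%. DEAD and DEAH box helicase genes had members at 3 of 51 (5.88%: DHX33, DDX42 and DDX54, the last in the member nearest to RITA1), cell cycle genes at 2 of 35 (5.71%: CDC20 with 19 tags and CDKN1B with 18) and ZNF genes at 28 of 498 (5.62%), led by ZNF618 with 33 tags, ZNF141 with 30 and ZNF844 with 28. Housekeeping genes had one at 1 of 23 (EEF1A1, 23 tags), solute carriers at 15 of 371 (4.04%, led by SLC44A3 with 25 tags), histone genes at 3 of 87 (3.45%, the single peak above), interferon genes at 1 of 32 (3.13%), splicing factors at 2 of 70 (HNRNPAB with 27 tags and PRPF4 with 13) and PSM genes at 1 of 48 (PSMD4, 16 tags). There were 0 members at 391 olfactory receptor genes, which allows a share of up to 0.939% (exact interval), below the 5.06% of all genes, at 55 keratin genes (up to 6.49%) and at 30 genes of epithelial-mesenchymal transition and invasion (up to 11.6%). Genes of a list can share neighbours and promoters, so these counts are a description.

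**Figure D5:**
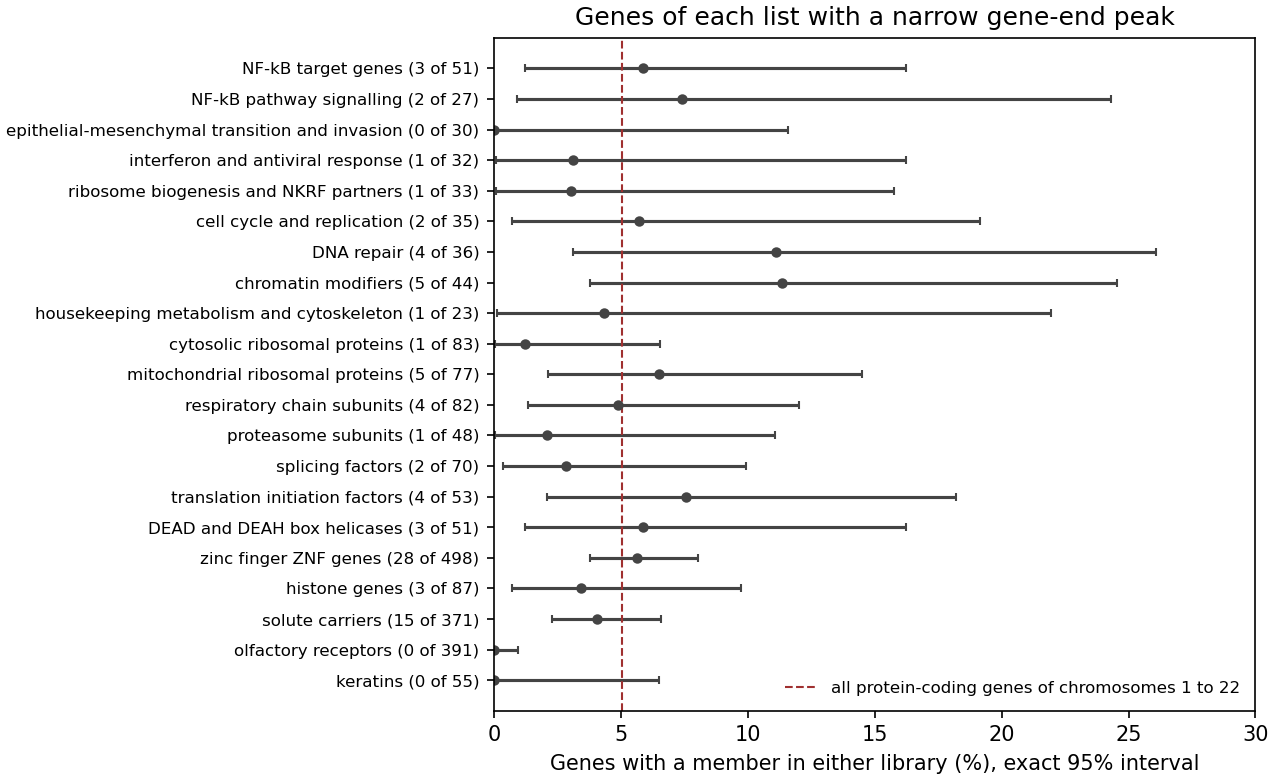
Percent of the genes of each list with a member in either si-Uc003xsl.1 library, with exact 95% intervals; the dashed line marks 5.06%, the share over all protein-coding genes of chromosomes 1 to 22. Every interval except that of olfactory receptors includes the line.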

How the data were processed

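NKRF and input DNA of MDA-MB-231-P3 cells were sequenced after formaldehyde fixation and immunoprecipitation, with 15 cycles of library amplification, per the labels' protocols. Bowtie2, CASAVA 1.4 and GRCh38.p11 are named in the submitters' processing notes; aligner settings are not given in the sources used here. Each NKRF library was compared with its input by MACS 1.4.2 (p-value threshold 1e-04), and control replicate 2 by MACS 2.1.1.20160309 (q-value threshold 0.05), per the file headers. The lists give counts of tags per peak, not normalized, per the file headers. The deposited score is -10 times log10 of the p-value, and fold enrichment is a ratio to scaled input, per the file headers. Each peak of the MACS 1.4.2 lists has a deposited false discovery rate in percent. The list of control replicate 2, as the authors deposited it, gives pileup signal and -log10 of p and q instead of tags.

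Computation used Python 3.11.15, pandas 2.3.3 and scipy 1.17.1, and the selection was tested on simulated data. Members and lists were chosen with earlier results of these data known. Gene ends came from RefSeq on GRCh38.p14, whose primary chromosomes keep the coordinates of GRCh38.p11; strand and promoters (250 bases before and 50 from the start) came from its promoter table. A gene's start is its outer end on the 5′ side, and of several promoters the one nearest to that end was used. A gene's list membership followed its symbol; the pattern for ribosomal proteins was narrowed after kinase genes were seen to match it. Named were the 10 members with most tags per library, genes with members in both libraries (at most 10), and list genes by tags (at most 5, or 3 for lists by name pattern). Intervals are exact Clopper-Pearson 95% and cover counting error only. Group shares were compared by exact two-sided permutation. Inputs entered only through the peak calls. Some genes that these rules name are not reported here.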

Additional observations from a re-analysis of the deposited data

How the results depend on the processing

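The share of members at gene starts stayed above 77% in every alternative run. In replicate 1 it was 91.2% with windows of 500 bp, 81.5% with 2 kb, 77.5% from 6 tags on and 91.5% with tags scaled to the smaller library. In replicate 2 it was 86.2% with 2 kb, 83.8% from 6 tags on and 94.9% from 15 tags on. The number of members fell to 299 in replicate 1 after scaling, and to 247 from 15 tags on and 197 in the upper part of the list by score in replicate 2. With the nearest gene only, 4.49% of genes had a member. The difference in gene-end share, which the selection used and which is given as a description, was 11.02 percentage points, 8.15 to 13.9 leaving out each library in turn, and 17.5 with the same number of peaks per list. With each library left out, the difference in start share ran from 26.6 (without control replicate 1) to 48.3 points (without control replicate 2); the alternatives for the start share were chosen after seeing the data. With the replicate number as a block the differences were 11.02 points in gene-end share and 37.5 points in start share (for the latter, exact sign-flip permutation p = 0.5, the smallest 2 pairs allow); nothing in the labels says that the numbers pair the libraries. With 10 to 40 tags a peak and no tag counts outside peaks, binding below the calling threshold was not detectable.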
